A study of Mus musculus with 40 samples.

Results

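The solute carriers are the genes whose symbols start with Slc and a family number, and 161 of the 12393 genes measured in these mouse lungs are described here. They were found by symbol in the platform annotation, where 262 genes matched. The probe set with the highest mean over the 40 arrays represented each gene, and a gene was kept where its mean of log2(intensity + 16) was at least 6, an intensity of about 48. That floor left out 96 genes, and 5 more were left out by name (Slc26a4, Slc7a2, Slc40a1, Slc7a11 and Slc34a2), so every count below is without them. Of the measured values, the rule used the mean over all arrays. Of the 5 genes left out by name, 3 passed the test for allergen at 6 h in each strain, so the counts below are set in part by that choice. Slc6a3, Slc66a1 and Slc12a5 lay just above the floor with means of 6.01, 6.02 and 6.08, and Slc7a8, Slc4a3 and Slc22a7 lay just below it with 5.93, 5.93 and 5.91. Slc66a1 and Slc6a3 would fall below it without the group where each was highest, with means of 5.94 and 5.99. Slc9a3r1 and Slc9a3r2, scaffold proteins that bind sodium-hydrogen exchangers, and Slc4a1ap, an adaptor protein, matched by symbol and are not transporters themselves.

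Total RNA of whole lung was hybridised to 40 arrays in 8 groups of 5, crossing C3H and AJ mice, allergen in PBS or PBS alone given by aspiration, and 24 h or 6 h afterwards. The groups are C3H with allergen, C3H with PBS, AJ with allergen and AJ with PBS at each time, and the labels call AJ the hyperresponsive strain. Titles write the allergen as OVA and descriptions as HDM, so it is called allergen; strain comes from the titles, since every description names AJ. Age, sex and separate mice per array are not stated in the labels, so p-values measure the spread between samples, part of which may be technical. Markers of alveolar type 2 cells, measured to check the tissue, summed to intensities of 16060.2 to 28353 over all arrays. C3H PBS 6 h replicate 2 stood apart, with a mean correlation of 0.939 with the other arrays of its group against 0.960 for the next lowest array. The counts of members that it enters are given with and without it. For single genes it is named in some cases. For others, such as Slc15a2, Slc1a1, Slc2a8 and Slc25a11 in C3H at 6 h, it is only among the counted fits that left out 1 array.

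Solute carriers move sugars, amino acids, peptides, ions, metals, nucleotides and metabolites across the plasma membrane and the membranes of lysosomes, mitochondria and the Golgi. Most are driven by gradients of sodium, protons or the substrate itself, not by ATP, and some need a partner protein to reach the cell surface. In lung they serve glucose and ion recovery from the airway fluid, metal and peptide handling in phagocytes, and the metabolism of every resident cell.

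Carriers of zinc, glucose and lysosomal peptides were among the largest rises with allergen against PBS. A gene is said to rise or fall where it passed (limma on log2(intensity + 16), Benjamini-Hochberg adjusted p under 0.05 over all genes). In C3H lungs at 24 h, 3 of 161 members passed, 1 higher and 2 lower, against 3.97% of the 8467 genes of the series with a mean of at least 6. That count was 9, 1 and 6 without allergen replicates 4, 1 and 5 in turn. In AJ lungs at 24 h, 19 of 161 passed, 12 higher and 7 lower, against 9.80% of those genes. In C3H lungs at 6 h, 19 of 161 passed, 10 higher and 9 lower, against 9.66%. Without C3H PBS 6 h replicate 2, or without C3H allergen 6 h replicate 1, it was 12. In AJ lungs at 6 h, 35 of 161 passed, 16 higher and 19 lower, against 24.3%, so the members' share of 21.7% was near the background. The split between directions there depended on scaling: quantile normalization gave 20 higher and 9 lower, and centring each array on its median gave 23 higher and 7 lower. The members' median log2 fold change was -0.09 in C3H at 24 h, 0.02 in AJ at 24 h, -0.06 in C3H at 6 h and -0.11 in AJ at 6 h, beside medians over all genes of -0.04, -0.004, -0.0016 and -0.07 in the same order. In the 12 comparisons made, 66 members passed at least 1 test and 95 passed none. The matching count over all genes was not made, so this is no result about carriers in particular. More carriers passed at 6 h than at 24 h in each strain, as did more of all genes above the floor. In C3H this order was not kept with array quality weights, which gave 12 at 24 h and 12 at 6 h, or at an unadjusted p under 0.05, which gave 45 at 24 h and 42 at 6 h. In whole lung, fewer cells of a type and less RNA per cell cannot be told apart.

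**Figure D1:**
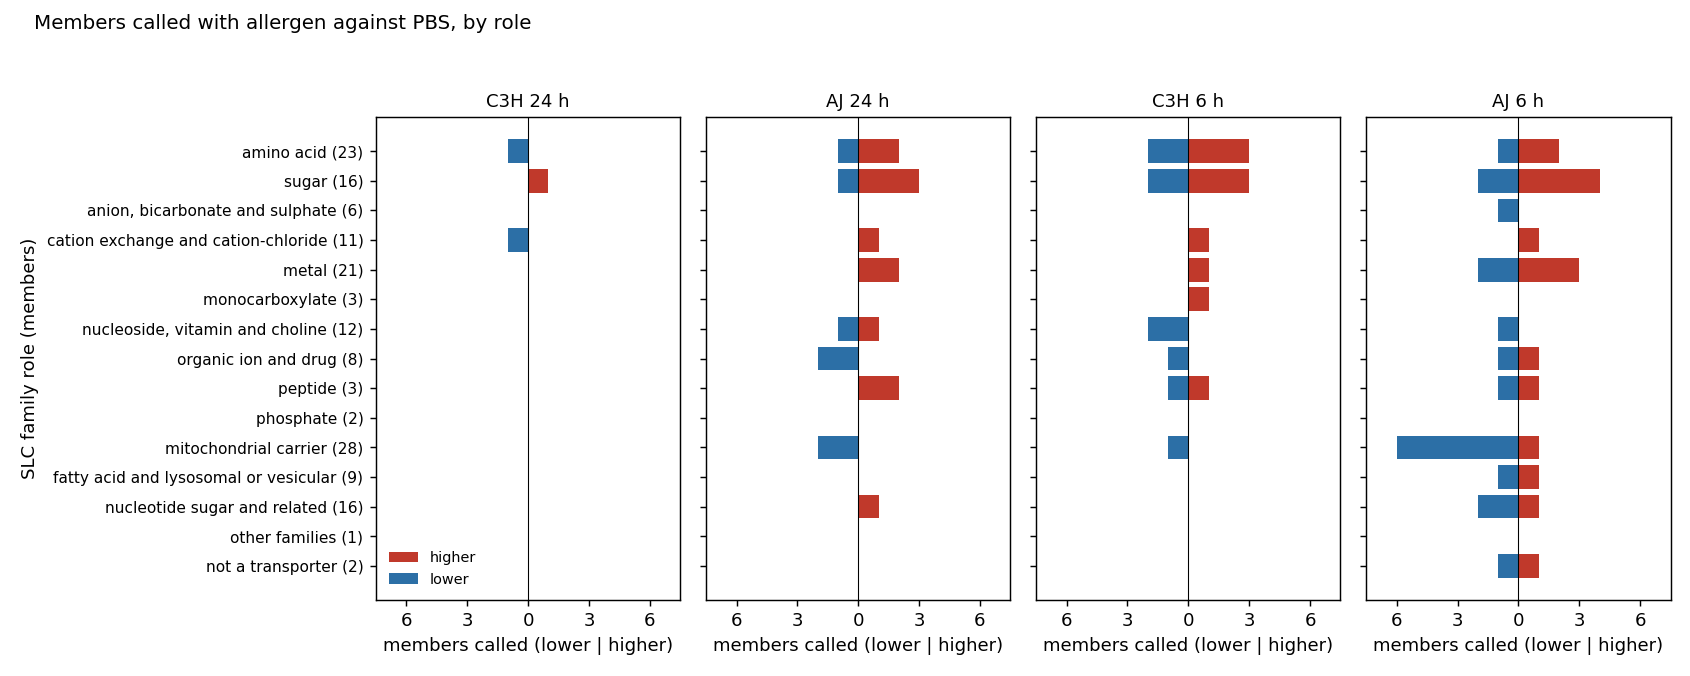
Bars show how many members of each role passed the test (limma adjusted p under 0.05) in each of the 4 allergen comparisons, with members higher with allergen to the right of 0 and lower ones to the left; the number of members of each role stands beside its name. Mitochondrial carriers in AJ at 6 h have the longest bar, with 6 of 28 members lower and 1 higher. The sugar carriers have a bar to the right in every comparison, of 1 member in C3H at 24 h.

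Among the 21 metal carriers, the zinc importer Slc39a14 had the largest change. In all, 2 metal carriers rose in AJ at 24 h, 1 rose in C3H at 6 h, and 3 rose and 2 fell in AJ at 6 h. Of all genes above the floor, 9.80%, 9.66% and 24.3% passed in these comparisons, in the same order. Slc39a14 (ZIP14), which brings zinc, manganese and non-transferrin iron into cells, had intensities of 404, 564, 234, 274 and 376 in C3H lungs 6 h after allergen, against 95.3, 139.7, 88.4, 131 and 110.3 with PBS. For AJ lungs at 6 h the values were 797, 463, 732, 571 and 457 with allergen, against 121, 129.8, 107, 67.6 and 90.7 with PBS. At 6 h all 5 allergen arrays of each strain stood above all 5 PBS arrays. Its log2 fold change was 1.54 ± 0.20 (SE, adjusted p = 1.5e-06) in C3H and 2.37 ± 0.20 (SE, adjusted p = 2.33e-11) in AJ, n = 5 arrays a group as throughout. At 24 h it had 208, 201, 253, 199 and 168 with allergen in AJ lungs, against 68.7, 113, 121, 93.7 and 106 with PBS. These groups did not overlap either. The log2 fold change was 0.94 ± 0.20 (SE, adjusted p = 0.00192). In C3H at 24 h the groups overlapped and the value was 0.58 ± 0.20 (SE, adjusted p = 0.111), which did not pass. A second, dimmer probe set of Slc39a14 differed by 0.46 in C3H and 0.44 in AJ at 6 h on the log2 scale, well under the first.

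Slc39a1 (ZIP1), another zinc importer of the plasma membrane, had 551, 368, 534, 460.2 and 544 with allergen in AJ lungs at 6 h, against 312, 280.1, 257, 363 and 386 with PBS. These groups overlapped at 1 allergen array, and the log2 fold change was 0.60 ± 0.14 (SE, adjusted p = 0.00217). In C3H at 6 h it was -0.18 ± 0.14 and did not pass. Slc11a2 (DMT1), the proton-coupled importer of ferrous iron, rose in AJ at 6 h by 0.48 ± 0.12 (SE, adjusted p = 0.0028). Another of its probe sets had the opposite sign. Slc11a1 (NRAMP1), which pumps metals out of the phagosomes of macrophages and neutrophils, rose in AJ at 24 h by 0.48 ± 0.12 (SE, adjusted p = 0.01). Slc39a13 and Slc30a5, zinc carriers of the secretory pathway, had log2 fold changes of -0.47 ± 0.12 and -0.41 ± 0.15 in AJ at 6 h and both fell (adjusted p = 0.00321 and 0.0442).

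**Figure D2:**
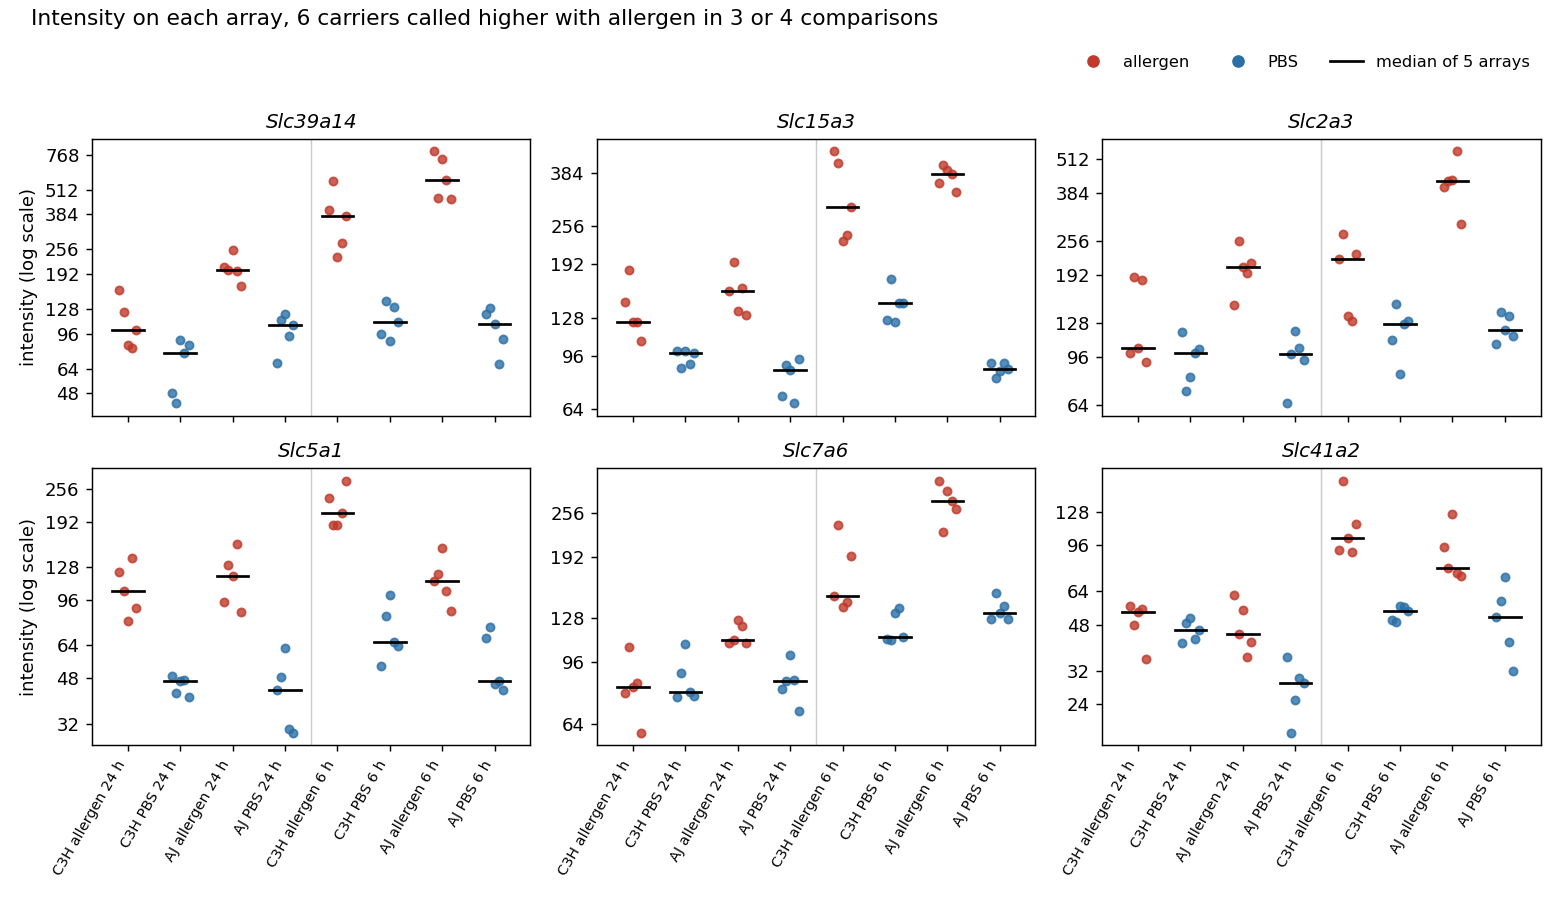
Each point is the intensity of 1 array on a log scale, for 6 carriers that rose with allergen in 3 or 4 comparisons, with allergen left of PBS in each strain and time and a line at each group's median. Slc39a14 in AJ lungs at 6 h lies between 457 and 797 with allergen and between 67.6 and 129.8 with PBS.

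The glucose carriers Slc5a1, Slc2a3 and Slc2a1 rose with allergen in both strains, while the glucose carriers Slc2a4 and Slc2a8 fell in 1 strain each. Of 16 sugar carriers, 1 rose in C3H and 3 rose and 1 fell in AJ at 24 h. At 6 h, 3 rose and 2 fell in C3H, and 4 rose and 2 fell in AJ. The shares of all genes above the floor that passed were 3.97% in C3H and 9.80% in AJ at 24 h, and 9.66% and 24.3% at 6 h. The median log2 fold change of the 16 at 6 h was -0.16 in C3H and -0.19 in AJ, below the medians over all genes. Slc5a1 (SGLT1), the sodium-glucose cotransporter of epithelial apical membranes, was the 1 member that passed in all 4 allergen comparisons. In C3H lungs it had 123, 104, 79.2, 139 and 89.3 with allergen at 24 h, against 48.8, 42, 46.8, 47.1 and 40.6 with PBS. In AJ lungs at 24 h it had 93.9, 131, 118, 158 and 86.3 with allergen, against 43.3, 48.6, 62.4, 30.4 and 29.5 with PBS. Neither pair of groups overlapped at 24 h. At 6 h it had 237, 186, 187, 208 and 276 with allergen in C3H lungs, against 53.3, 83.3, 100.4, 66.2 and 63.7 with PBS. In the AJ strain at 6 h it had 113, 121, 151, 104 and 86.6 with allergen, against 68.5, 75.3, 45.7, 46.8 and 43.2 with PBS, again with no overlap in either strain. The log2 fold changes were 0.99 ± 0.17 (SE, adjusted p = 0.000246) in C3H and 1.18 ± 0.17 (SE, adjusted p = 3.28e-06) in AJ at 24 h. At 6 h they were 1.40 ± 0.17 (SE, adjusted p = 2.04e-07) in C3H and 0.87 ± 0.17 (SE, adjusted p = 0.00014) in AJ. A second probe set of the gene gave 1.06 in C3H and 0.88 in AJ at 24 h, and 1.35 in C3H and 1.07 in AJ at 6 h.

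The 250 bases before the start of Slc5a1 are shown because this carrier passed in every allergen comparison. They come from RefSeq (GRCm38.p6, chr5:33103969-33104218, plus strand), 5′ to 3′, and capitals mark matches to ACGTG, the core that hypoxia-inducible factors read, or CACGT on the other strand; the matches overlap here.
Slc5a1 promoter: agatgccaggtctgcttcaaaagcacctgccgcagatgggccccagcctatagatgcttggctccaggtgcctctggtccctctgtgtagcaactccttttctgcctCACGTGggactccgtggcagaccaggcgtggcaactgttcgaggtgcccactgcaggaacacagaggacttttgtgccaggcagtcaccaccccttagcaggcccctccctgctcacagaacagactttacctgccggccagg
ACGTG stood on either strand in 16.6% of 27025 RefSeq promoters of this length and in 30 of the 125 members with one, a description of letters alone. Also searched on both strands were TGANTCA (AP-1), TTCNNNGAA (STAT) and TGATGNAA (amino acid response), found in 6.87%, 7.18% and 3.53% of promoters in that order, and no other match stood in this window.

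Slc2a3 (GLUT3), a high-affinity glucose carrier of leukocytes and neurons, had 219.6, 273, 135, 129 and 229 with allergen in C3H lungs at 6 h, against 111, 150.5, 82.7, 126 and 129.6 with PBS. In AJ lungs at 6 h it had 403, 425, 431, 547 and 295 with allergen, against 107, 141, 121, 135 and 114 with PBS. The groups overlapped in C3H and did not in AJ, with log2 fold changes of 0.62 ± 0.19 (SE, adjusted p = 0.0415) in C3H and 1.62 ± 0.19 (SE, adjusted p = 3.78e-08) in AJ. In AJ at 24 h its log2 fold change was 0.98 ± 0.19 (SE, adjusted p = 0.000603), also without overlap, at 149, 255, 206, 195 and 213 with allergen, against 64.6, 97.8, 119, 103 and 93.5 with PBS. The C3H call at 6 h did not hold after median centring, with a pseudocount of 1, or in 6 of 10 fits that left out 1 array (adjusted p up to 0.157). All 4 probe sets of Slc2a3 were higher with allergen in AJ at 6 h, by 0.37 to 1.62 on the log2 scale.

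Slc2a1 (GLUT1), the glucose carrier of most cells, had 299, 247, 320.4, 303 and 288 with allergen in C3H lungs at 6 h, against 209, 209, 209, 143 and 143 with PBS. It had 193, 206, 227, 206 and 199 with allergen in AJ lungs at 6 h, against 144, 139.7, 122, 137 and 145 with PBS. Neither strain's groups overlapped, with log2 fold changes of 0.65 ± 0.12 (SE, adjusted p = 0.000215) in C3H and 0.53 ± 0.12 (SE, adjusted p = 0.00073) in AJ. Slc37a2, a sugar-phosphate carrier of macrophages, rose in AJ at 24 h by 0.62 ± 0.13 (SE, adjusted p = 0.00119). Slc45a3, a sugar carrier family member, rose in AJ at 6 h by 0.41 ± 0.10 (SE, adjusted p = 0.00217). Slc37a4, which brings glucose-6-phosphate into the endoplasmic reticulum, fell in AJ at 6 h, at -0.58 ± 0.11 (SE, adjusted p = 0.000203). Its relative Slc37a1 fell in C3H at 6 h, at -0.57 ± 0.12 (SE, adjusted p = 0.00119). Slc2a8, an intracellular glucose carrier, fell in C3H at 6 h, at -0.64 ± 0.19 (SE, adjusted p = 0.0315), a call that ended in 4 of 10 fits without 1 array and with array quality weights.

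Slc2a4 (GLUT4), the insulin-responsive glucose carrier of muscle and fat, fell in AJ lungs at 24 h. It had 88.4, 94, 117, 96.1 and 56.2 with allergen, against 121, 153, 317, 154 and 154 with PBS. All allergen arrays lay below all PBS arrays, although PBS replicate 3 stood far above the other PBS arrays. This gave a log2 change of -0.84 ± 0.22 (SE, adjusted p = 0.0101), and without that array the adjusted p was 0.0646. Cardiac muscle markers moved with it in these groups: 4 of 7 fell, and their summed intensity ran 855 to 2205 with allergen, against 2749 to 6487 with PBS. Of the adipocyte markers, 2 of 5 measured fell, and their sum ran 156 to 2383 with allergen, against 1563 to 6492 with PBS. Cfd and Plin1 were not among the genes tested. Skeletal muscle markers had 0 of 7 passing by limma and 3 with an unadjusted p under 0.05, with sums of 376 to 7455 with allergen, against 3344 to 9879 with PBS. The part of these cells in the change of Slc2a4 was not tested.

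Of 13 glycolysis genes measured beside the carriers, 3 rose in AJ at 6 h: Hk2 (hexokinase) by 1.37 ± 0.18 (SE, adjusted p = 3.48e-07), Pfkfb3, which makes the activator of phosphofructokinase, by 1.13 ± 0.19 (SE, adjusted p = 2.76e-05), and Pfkp by 0.37 ± 0.11 (SE, adjusted p = 0.0178). In C3H and AJ at 24 h and in C3H at 6 h, 0 of the 13 passed by limma, and 2, 1 and 2 of them had an unadjusted p under 0.05. The median log2 fold change of the 13 was 0.12 in AJ at 6 h, beside -0.07 over all genes. There 7.03% of all genes rose.

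All 3 peptide carriers changed somewhere, and the lysosomal Slc15a3 had the largest rise of the 3. Slc15a3 (PHT2) exports histidine and small peptides from the lysosomes of macrophages and dendritic cells. It had 451, 413, 229, 240.0 and 297 with allergen in C3H lungs at 6 h, against 126, 172, 124, 143 and 143 with PBS. AJ lungs at 6 h gave 356, 406, 391, 381 and 331 with allergen, against 90.7, 80.9, 85.2, 90.8 and 86.8 with PBS. Both strains' groups stood clear of each other, with log2 fold changes of 1.08 ± 0.14 (SE, adjusted p = 7.32e-07) in C3H and 1.92 ± 0.14 (SE, adjusted p = 3.65e-13) in AJ. At 24 h it had 157, 195, 135, 160.3 and 131 with allergen in AJ, against 70.7, 89.1, 86.1, 66.8 and 93.4 with PBS. The log2 fold change was 0.82 ± 0.14 (SE, adjusted p = 6.6e-05). In C3H at 24 h the groups did not overlap either, at 143, 184, 123, 124 and 107 with allergen, against 99.3, 87, 99.2, 89.9 and 98.1 with PBS, but the log2 fold change of 0.44 ± 0.14 (SE, adjusted p = 0.0673) did not pass. Slc15a4 (PHT1), its endolysosomal relative, fell in AJ at 6 h, at -0.61 ± 0.15 (SE, adjusted p = 0.00334).

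Slc15a2 (PEPT2), which takes up small peptides at the apical membrane of airway and alveolar epithelium, went opposite ways in the groups where it passed. It had 332, 225, 218, 176 and 328 with allergen in AJ lungs at 24 h, against 148, 159, 126, 204 and 139 with PBS. The log2 fold change was 0.65 ± 0.18 (SE, adjusted p = 0.0158). In C3H lungs at 6 h it had 65.7, 112, 90.1, 101 and 85 with allergen, against 118, 144, 103, 187 and 168 with PBS. This gave a log2 change of -0.57 ± 0.18 (SE, adjusted p = 0.0369). Each pair of groups overlapped at a single array. Its other probe set differed by 0.12 and -0.27 on the log2 scale in the same comparisons, and no call held on the mean of both probe sets. Fits without 1 array lost the AJ call in 3 of 10 and the C3H call in 6 of 10, and the C3H call also ended with array quality weights or a pseudocount of 64.

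Some leukocyte markers rose in each allergen comparison. Of 7 neutrophil markers measured (Ly6g and Retnlg were not tested), 0 rose in C3H and 3 in AJ at 24 h, and 4 in C3H and 7 in AJ at 6 h, by limma; in C3H at 24 h 1 had an unadjusted p under 0.05. Their summed intensity ran 630.4 to 1091 with allergen in C3H at 24 h, against 545 to 889 with PBS, and 1254 to 4974 in AJ, against 511 to 605. At 6 h it ran 1357 to 8662 with allergen in C3H, against 612 to 2054 with PBS, and 5583 to 8394 in AJ, against 559 to 1437. Of 8 macrophage markers, 5 rose in C3H and 7 in AJ at 24 h, and 4 in C3H and 5 in AJ at 6 h. Their sum ran 4111 to 5082 with allergen in AJ at 24 h, against 2006 to 2507 with PBS. At 6 h in AJ it ran 2988 to 3931 with allergen, against 2036 to 2573 with PBS. The allergen effect in AJ was larger at 24 h than at 6 h for 5 of these 8, and smaller for 2 of the 7 neutrophil markers. On their brightest probe sets, Slc39a14 and Slc15a3 had a smaller effect at 24 h. Of 6 T cell markers, 2 rose in AJ at each time and 1 in C3H at 24 h. Of 4 B and plasma cell markers, 2 rose in AJ and 1 in C3H at each time. What share of the rises of Slc39a14, Slc2a3, Slc15a3, Slc11a1 and Slc37a2 lies in these cells was not tested.

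**Figure D3:**
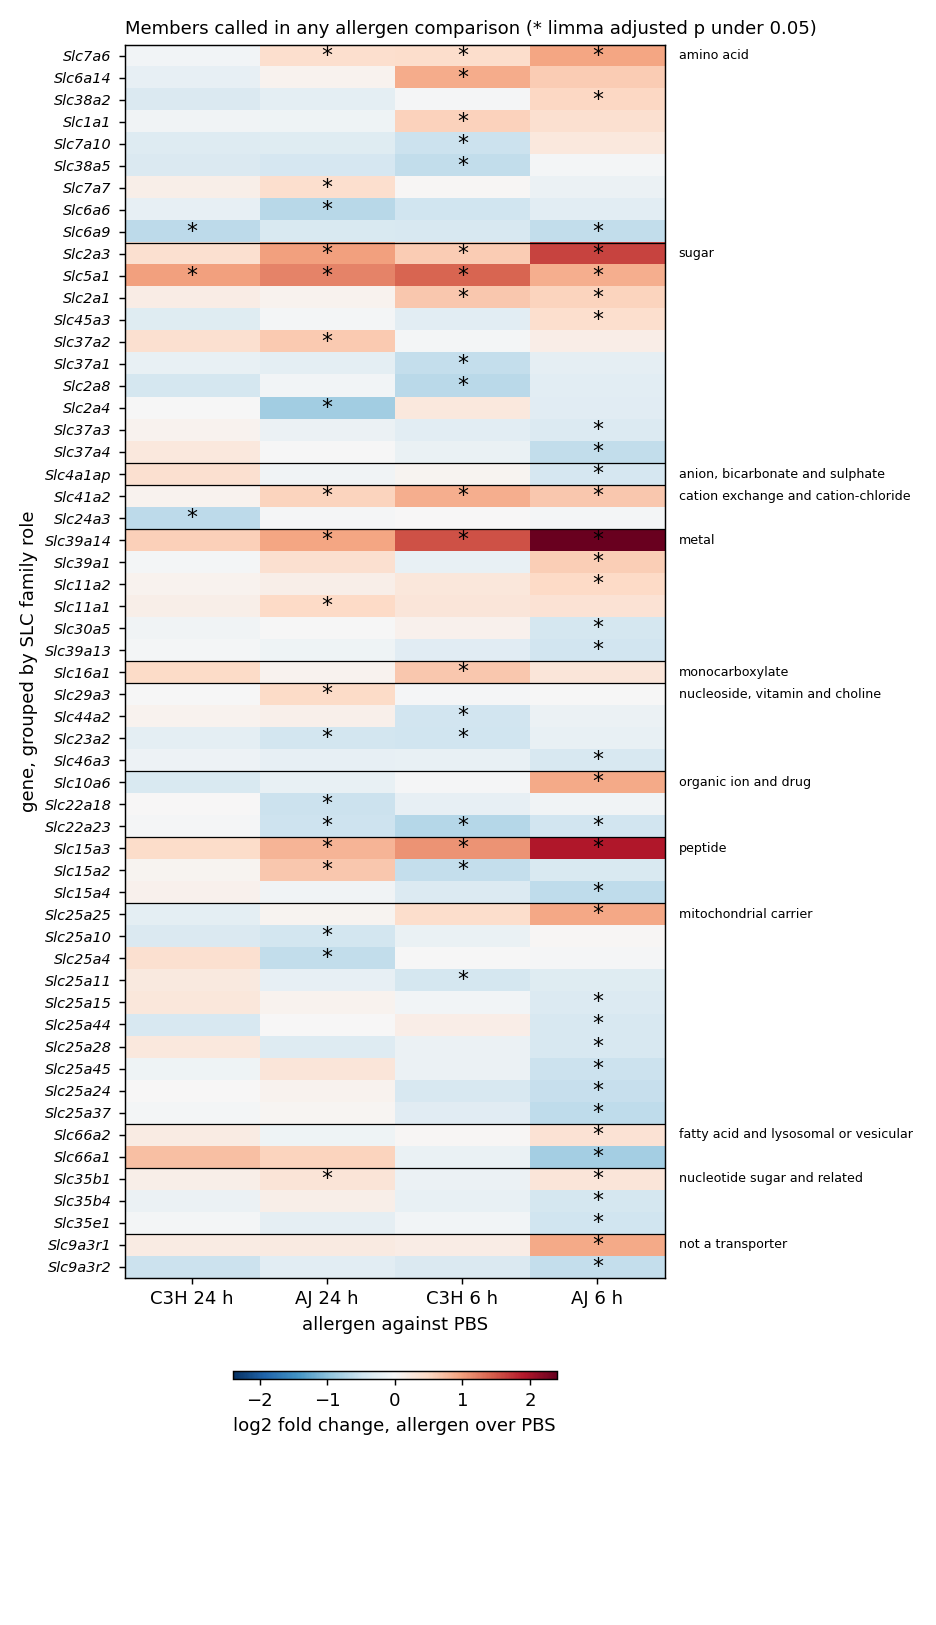
Colours give the log2 fold change, allergen over PBS, of the 56 members that passed in any allergen comparison, 1 row a gene and 1 column a comparison, grouped by role, with an asterisk where limma's adjusted p was under 0.05. Slc39a14 in AJ at 6 h is the strongest rise, at 2.37, and Slc5a1 is the row with an asterisk in every column.

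Of 23 amino acid carriers, 1 fell in C3H and 2 rose and 1 fell in AJ at 24 h with allergen. At 6 h, 3 rose and 2 fell in C3H, and 2 rose and 1 fell in AJ. Of all genes above the floor, 3.97% in C3H and 9.80% in AJ passed at 24 h, and 9.66% and 24.3% at 6 h. Slc7a6 (y+LAT2), a light chain that exchanges cationic for neutral amino acids, had 148, 236, 138, 143 and 192 with allergen in C3H lungs at 6 h, against 112, 111, 133, 138 and 113 with PBS. In AJ lungs at 6 h it had 316, 226, 296, 278 and 263 with allergen, against 128, 151, 132, 138 and 127 with PBS. The C3H groups nearly touched and the AJ groups lay well apart, with log2 fold changes of 0.43 ± 0.12 (SE, adjusted p = 0.021) in C3H and 0.94 ± 0.12 (SE, adjusted p = 1.56e-07) in AJ. In AJ at 24 h it was 0.39 ± 0.12 (SE, adjusted p = 0.0337). A second probe set differed by 0.34 in C3H and -0.03 in AJ at 6 h, so the probe sets disagreed in AJ, and the C3H call was lost in 4 of 10 fits without 1 array. Slc7a7 (y+LAT1), the light chain of macrophages and kidney, rose in AJ at 24 h by 0.40 ± 0.10 (SE, adjusted p = 0.0098). Slc38a2 (SNAT2), a sodium-coupled carrier induced by amino acid starvation, rose in AJ at 6 h by 0.50 ± 0.16 (SE, adjusted p = 0.018).

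Slc6a14 (ATB0,+), which takes up neutral and cationic amino acids at the airway surface, had 424, 574, 399.8, 429.6 and 451 with allergen in C3H lungs at 6 h, against 268, 73.6, 379, 311 and 293 with PBS. The groups did not overlap, and PBS replicate 2 lay far below the others. The log2 fold change was 0.89 ± 0.24 (SE, adjusted p = 0.0162). This call did not hold with array weights or in 2 of 10 fits without 1 array, those without PBS replicate 2 or allergen replicate 2, with adjusted p up to 0.0835. In AJ at 6 h it was 0.61 ± 0.24 (SE, adjusted p = 0.0744), which did not pass. Slc1a1, a carrier of glutamate and cysteine, rose in C3H at 6 h by 0.54 ± 0.17 (SE, adjusted p = 0.0352), a call lost in 7 of 10 fits without 1 array and with array quality weights. Slc6a6, the taurine carrier, fell in AJ at 24 h at -0.66 ± 0.17 (SE, adjusted p = 0.012), a call lost without AJ allergen 24 h replicate 5 or AJ PBS 24 h replicate 2, and on the mean of all its probe sets (-0.49, adjusted p = 0.163). Slc6a9, a glycine carrier, fell in C3H at 24 h at -0.63 ± 0.14 (SE, adjusted p = 0.00873) and in AJ at 6 h at -0.59 ± 0.14 (SE, adjusted p = 0.00206). Without C3H allergen 24 h replicate 1 the first had an adjusted p of 0.0512, and neither held on the mean of all its probe sets. At least 1 other probe set of Slc6a9 had the opposite sign in C3H at 24 h. Slc38a5 and Slc7a10, carriers of small neutral amino acids, fell in C3H at 6 h, at -0.60 ± 0.18 (SE, adjusted p = 0.03) and -0.52 ± 0.16 (SE, adjusted p = 0.0432), with calls lost in 5 of 10 and 6 of 10 fits without 1 array. Both were also lost with array quality weights, and that of Slc7a10 with a pseudocount of 1.

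Slc7a5 (LAT1) and Slc3a2 (4F2hc) are the light and heavy chains of the carrier that imports leucine and other large neutral amino acids, and both were lower at 24 h than at 6 h in PBS lungs of each strain. Slc3a2 had 1179, 1297, 1006, 1143 and 1213 at 24 h in C3H PBS lungs, against 1791, 2264, 1729.9, 1465 and 1560.5 at 6 h. In AJ PBS lungs it had 1338, 1100.4, 1208, 1130.1 and 984 at 24 h, against 1958, 2077, 1679.9, 2115 and 1787 at 6 h. No 24 h array reached a 6 h array in either strain, and the log2 differences, 24 h minus 6 h, were -0.58 ± 0.11 (SE, adjusted p = 0.00157) in C3H and -0.73 ± 0.11 (SE, adjusted p = 4.75e-05) in AJ. Slc7a5 had 75, 125, 85.3, 102 and 123 at 24 h in C3H PBS lungs, against 153, 149, 195, 257 and 182 at 6 h. In AJ PBS lungs it had 115, 66, 94.3, 83.4 and 72.9 at 24 h, against 239.6, 329, 206, 179.8 and 146 at 6 h. These groups did not overlap either, with log2 differences of -0.78 ± 0.21 (SE, adjusted p = 0.0293) in C3H, lost in 5 of 10 fits without 1 array, and -1.18 ± 0.21 (SE, adjusted p = 0.000514) in AJ. With allergen against PBS in AJ at 6 h, Slc7a5 had -0.49 ± 0.21 (SE, adjusted p = 0.103) and Slc3a2 -0.15 ± 0.11 (SE, adjusted p = 0.438), neither of which passed. The 250 bases before Slc3a2 are shown as those of the heavy chain that several light chains share (RefSeq, GRCm38.p6, chr19:8713898-8714147, minus strand, 5′ to 3′, CACGT in capitals); none of the other motifs matched.
Slc3a2 promoter: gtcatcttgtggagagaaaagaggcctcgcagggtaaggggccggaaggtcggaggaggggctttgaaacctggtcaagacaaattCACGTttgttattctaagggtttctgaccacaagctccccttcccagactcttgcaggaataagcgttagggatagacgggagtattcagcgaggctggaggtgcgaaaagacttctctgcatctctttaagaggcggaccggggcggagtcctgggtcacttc

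With PBS alone, 8 of 161 members differed between 24 h and 6 h in C3H, 1 higher and 7 lower at 24 h, against 4.23% of the genes above the floor, and 12 of 161 in AJ, 4 higher and 8 lower, against 7.03%. The C3H count was 5 and 4 without C3H PBS 24 h replicates 5 and 1 in turn, and 7 without C3H PBS 6 h replicate 2. Array quality weights gave 17. Slc6a14 had 213, 141, 105, 164 and 185 in AJ PBS lungs at 24 h, against 347, 420.4, 304, 295 and 364 at 6 h. It was lower at 24 h without overlap, at -1.05 ± 0.24 (SE, adjusted p = 0.00722). Slc25a33, a mitochondrial carrier of pyrimidine nucleotides, was lower at 24 h in C3H, at -0.42 ± 0.11 (SE, adjusted p = 0.024), and in AJ, at -0.49 ± 0.11 (SE, adjusted p = 0.00511). Slc7a6 was lower too, at -0.43 ± 0.12 (SE, adjusted p = 0.0344) in C3H and -0.60 ± 0.12 (SE, adjusted p = 0.00193) in AJ. In AJ, Slc41a2 was lower at 24 h, at -0.60 ± 0.15 (SE, adjusted p = 0.0138). So were Slc25a37, the mitochondrial iron importer mitoferrin-1, at -0.79 ± 0.21 (SE, adjusted p = 0.0204), and Slc22a5, the carnitine carrier, at -0.45 ± 0.13 (SE, adjusted p = 0.029). Slc25a35, a mitochondrial carrier, was higher at 24 h in AJ by 0.82 ± 0.15 (SE, adjusted p = 0.000785). Slc35a1, which brings CMP-sialic acid into the Golgi, was higher at 24 h in C3H by 0.44 ± 0.12 (SE, adjusted p = 0.0269). In C3H, Slc39a1 had -0.66 ± 0.14 (SE, adjusted p = 0.00513) and Slc2a1 -0.49 ± 0.12 (SE, adjusted p = 0.0114), both lower at 24 h. Fits without 1 array lost the call of Slc7a6 in C3H in 6 of 10 and, in AJ, those of Slc25a37 in 4 of 10 and Slc41a2 in 3 of 10. That of Slc35a1 was lost without replicate 2 of C3H PBS at 6 h or at 24 h. The labels do not say at what hour of the day the lungs were taken.

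Of 15 genes of the amino acid response, 6 were lower at 24 h than at 6 h with PBS in each strain, among them Atf4, its transcription factor, at -0.49 ± 0.13 (SE, adjusted p = 0.0248) in C3H and -0.91 ± 0.13 (SE, adjusted p = 1.47e-05) in AJ. Of all genes, 1.45% in C3H and 2.48% in AJ were lower in these comparisons. With allergen in AJ at 6 h, 1 of the 15 rose and 8 fell, with a median log2 fold change of -0.53 beside -0.07 over all genes. Asns (asparagine synthetase) had -0.91 ± 0.14 (SE, adjusted p = 2.57e-06) and Psat1, an enzyme of serine synthesis, -0.83 ± 0.13 (SE, adjusted p = 5.53e-06), while Atf4 had 0.40 ± 0.13 (SE, adjusted p = 0.0235). Asns, Psat1 and Trib3 were also among the 6 lower at 24 h with PBS in AJ. The AJ PBS arrays of 6 h enter both comparisons, so these are not independent results. In C3H at 24 h 0 of the 15 passed by limma and 1 had an unadjusted p under 0.05, while 1 fell in AJ at 24 h and 1 in C3H at 6 h. Of all genes, 3.28% fell in AJ at 24 h and 3.69% in C3H at 6 h.

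**Figure D4:**
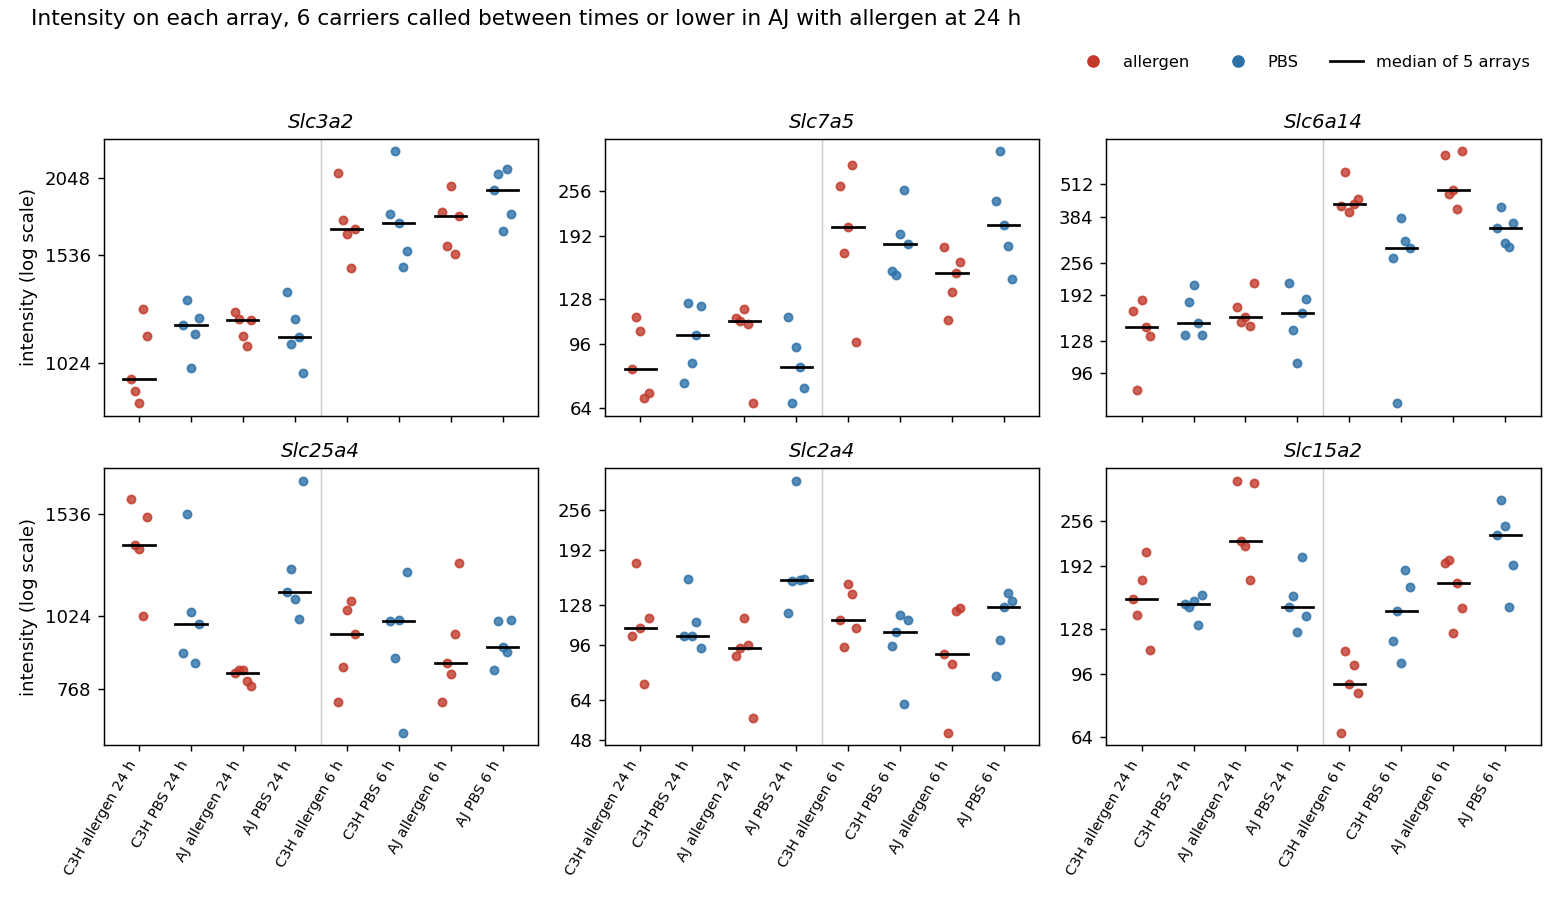
Each point is the intensity of 1 array on a log scale, for Slc3a2, Slc7a5 and Slc6a14, which differed between times, and for Slc25a4, Slc2a4 and Slc15a2, which changed in AJ with allergen at 24 h; a line marks each group's median. Slc3a2 in PBS lungs lies between 984 and 1338 at 24 h and between 1465 and 2264 at 6 h over both strains.

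Of 11 cation exchangers and cation-chloride carriers, Slc41a2, a magnesium carrier, was the 1 that rose with allergen. It had 91.7, 168, 102, 90.2 and 115 with allergen in C3H lungs at 6 h, against 49.8, 49.2, 56.7, 55.9 and 54.1 with PBS. With AJ at 6 h, intensities were 94, 78.2, 126, 75 and 73.1 with allergen, against 51.1, 59.1, 72.4, 41.2 and 32.2 with PBS. The groups did not overlap in either strain, with log2 fold changes of 0.87 ± 0.15 (SE, adjusted p = 0.000108) in C3H and 0.66 ± 0.15 (SE, adjusted p = 0.00121) in AJ. In AJ at 24 h it was 0.54 ± 0.15 (SE, adjusted p = 0.0184), a call lost with a pseudocount of 64 and in 3 of 10 fits without 1 array. Slc24a3, a sodium-calcium-potassium exchanger, fell in C3H at 24 h at -0.64 ± 0.16 (SE, adjusted p = 0.0212), lost in 3 of 10 such fits. Slc12a2 (NKCC1), the chloride loader of secreting epithelium, did not pass anywhere, with log2 fold changes of -0.08 ± 0.17 in C3H and 0.13 ± 0.17 in AJ at 24 h, and 0.38 ± 0.17 in C3H and 0.31 ± 0.17 in AJ at 6 h. The bases before Slc41a2 are shown because it was the cation carrier that rose in both strains (RefSeq, GRCm38.p6, chr10:83337818-83338067, minus strand, 5′ to 3′, CACGT in capitals); no other motif matched.
Slc41a2 promoter: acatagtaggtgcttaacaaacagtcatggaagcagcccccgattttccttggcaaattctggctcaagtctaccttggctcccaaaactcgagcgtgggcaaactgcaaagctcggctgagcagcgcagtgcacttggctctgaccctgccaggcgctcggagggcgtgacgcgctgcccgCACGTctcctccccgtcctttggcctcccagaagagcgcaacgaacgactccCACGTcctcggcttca

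Among 3 monocarboxylate carriers, Slc16a1 (MCT1), which moves lactate and pyruvate, rose in C3H at 6 h by 0.64 ± 0.15 (SE, adjusted p = 0.00468), without overlap of the groups. Slc16a3 (MCT4), the lactate exporter of glycolytic cells, did not pass, at 0.39 ± 0.18 (SE, adjusted p = 0.229) in C3H and 0.42 ± 0.18 (SE, adjusted p = 0.115) in AJ at 6 h. Among 8 carriers of organic ions and drugs, Slc10a6, which takes up sulphated steroids, had 278, 451, 255, 320.3 and 311 with allergen in C3H lungs at 6 h, against 304, 324, 295, 293 and 406 with PBS. In AJ lungs at 6 h it had 631, 911, 681, 731 and 612 with allergen, against 437, 390.5, 345, 294 and 403 with PBS. Only the AJ groups lay apart, with log2 fold changes of -0.02 ± 0.14 (SE, adjusted p = 0.965) in C3H and 0.90 ± 0.14 (SE, adjusted p = 4.39e-06) in AJ. Slc22a23, of the organic ion family, had 224, 296, 324, 275 and 284 with allergen in C3H lungs at 6 h, against 478, 502, 475, 415 and 422 with PBS, groups that did not overlap. It fell in C3H at 6 h, at -0.68 ± 0.12 (SE, adjusted p = 0.000108), and in AJ at 24 h and 6 h, at -0.50 ± 0.12 (SE, adjusted p = 0.00422) and -0.47 ± 0.12 (SE, adjusted p = 0.00324). Slc22a18 fell in AJ at 24 h, at -0.51 ± 0.12 (SE, adjusted p = 0.00378). In AJ PBS lungs it was itself higher at 24 h than at 6 h, by 0.57 to 0.69 in fits without 1 array. The PBS arrays of 24 h enter both comparisons.

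Of 28 mitochondrial carriers of family 25, 0 passed in C3H and 2 fell in AJ at 24 h, and 1 fell in C3H and 1 rose and 6 fell in AJ at 6 h, by limma. The share that passed in AJ at 6 h was near that of all genes above the floor, where 15.9% fell and 8.44% rose. At an unadjusted p under 0.05, 11 of the 28 passed in C3H at 24 h. Their median log2 fold change in AJ at 6 h was -0.18, beside -0.07 over all genes. Slc25a25, a calcium-regulated carrier of ATP-magnesium and phosphate, was the riser, with 212, 311, 276, 278 and 311 with allergen in AJ at 6 h, against 188, 100.4, 152, 135 and 118 with PBS. Those groups did not overlap, and the log2 fold change was 0.94 ± 0.21 (SE, adjusted p = 0.000904). Its relative Slc25a24 fell, at -0.55 ± 0.17 (SE, adjusted p = 0.0197). Slc25a37 fell at -0.60 ± 0.21 (SE, adjusted p = 0.0382), and with its relative Slc25a28, mitoferrin-2, at -0.38 ± 0.13 (SE, adjusted p = 0.0279), both mitochondrial iron importers were lower. The call of Slc25a37 was lost under quantile normalization, median centring and 6 of 10 fits without 1 array, and that of Slc25a24 under median centring and 3 of 10 fits. Erythroid markers fell in 1 of 4 measured, with sums of 583 to 929 with allergen, against 891 to 1477 with PBS, and their part was not tested. The other 3 that fell were Slc25a15, an ornithine carrier, Slc25a44, a carrier of branched-chain amino acids, and Slc25a45, at -0.33, -0.38 and -0.51, and a second probe set of Slc25a44 had the opposite sign.

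Slc25a4, the ADP/ATP exchanger of heart and muscle mitochondria, had 1625, 1356, 1336, 1026 and 1519 with allergen in C3H lungs at 24 h, against 885, 1537, 1041, 851 and 992 with PBS. For AJ lungs at 24 h the values were 818, 829.6, 827, 794 and 777 with allergen, against 1126, 1232, 1096, 1014 and 1749.5 with PBS. The C3H groups overlapped, while all AJ allergen arrays lay below all AJ PBS arrays. Its log2 fold change was 0.38 ± 0.16 (SE, adjusted p = 0.195) in C3H, which did not pass, and -0.58 ± 0.16 (SE, adjusted p = 0.0172) in AJ. Without AJ PBS 24 h replicate 5 the AJ call had an adjusted p of 0.0896, and it was lost on the mean of its 4 probe sets, which differed by -0.58 to -0.13. The cardiac muscle markers ran 2307 to 6522 with allergen in C3H at 24 h, against 2851 to 4183 with PBS, beside the AJ sums given with Slc2a4, and their part was not tested. Slc25a10, the dicarboxylate carrier, fell in AJ at 24 h, at -0.43 ± 0.12 (SE, adjusted p = 0.0221), and Slc25a11, the oxoglutarate carrier, fell in C3H at 6 h, at -0.42 ± 0.12 (SE, adjusted p = 0.0164). These calls were lost in 3 of 10 and 4 of 10 fits without 1 array, and the second with array quality weights. In AJ PBS lungs Slc25a10 was itself higher at 24 h than at 6 h. That difference was 0.34 to 0.54 in fits without 1 array, and its call was lost in 5 of 10.

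Among 16 nucleotide sugar carriers, 1 rose and 2 fell in AJ at 6 h, and of 9 fatty acid, lysosomal or vesicular carriers 1 rose and 1 fell, shares near the background. Among the nucleotide sugar carriers, Slc35b1, which exchanges ATP and ADP across the endoplasmic reticulum, rose in AJ at 24 h by 0.31 ± 0.09 (SE, adjusted p = 0.0182) and at 6 h by 0.29 ± 0.09 (SE, adjusted p = 0.0136). Slc35b4, a Golgi carrier of UDP-sugars, and Slc35e1 fell in AJ at 6 h, at -0.42 and -0.48, and the call of Slc35e1 was lost in 5 of the alternative settings and 6 of 10 fits without 1 array. Slc29a3 (ENT3), a lysosomal nucleoside carrier, rose in AJ at 24 h by 0.47 ± 0.14 (SE, adjusted p = 0.0348). Slc23a2 (SVCT2), the sodium-coupled vitamin C carrier, fell in C3H at 6 h at -0.48 ± 0.11 (SE, adjusted p = 0.00357) and in AJ at 24 h at -0.44 ± 0.11 (SE, adjusted p = 0.00787). Neither Slc23a2 call, nor that of Slc29a3, held on the mean of all probe sets of the gene, and that of Slc29a3 was lost in 4 of 10 fits without 1 array. Slc44a2, a choline carrier, fell in C3H at 6 h at -0.46 ± 0.12 (SE, adjusted p = 0.0115), with an adjusted p of 0.0556 without C3H PBS 6 h replicate 2. This call was also lost with array quality weights and on the mean of its probe sets, at -0.22 (adjusted p = 0.197). Slc46a3, a lysosomal carrier, fell in AJ at 6 h at -0.38 ± 0.13 (SE, adjusted p = 0.0343). Slc66a1, a lysosomal exporter of cationic amino acids, fell in AJ at 6 h, at -0.82 ± 0.27 (SE, adjusted p = 0.0308), and its relative Slc66a2 rose, at 0.35 ± 0.13 (SE, adjusted p = 0.0488), with another probe set of opposite sign. The Slc66a1 call was lost under quantile normalization, median centring, a pseudocount of 1 and 5 of 10 fits without 1 array. This gene reached the floor only through the group where it was highest, so its group differences are not independent of the choice of members.

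Of the scaffolds, Slc9a3r1 (NHERF1), which anchors the chloride channel Cftr and exchangers at the apical membrane, had 630.0, 635, 695, 642 and 566 with allergen in AJ lungs at 6 h, against 334, 366, 297, 297 and 349.9 with PBS. The groups lay apart. The log2 fold change was 0.92 ± 0.13 (SE, adjusted p = 1.21e-06). Slc9a3r2 (NHERF2) fell there, at -0.57 ± 0.18 (SE, adjusted p = 0.0184), with overlap and a call lost in 4 of 10 fits without 1 array.

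Other transport genes were followed beside the carriers. Of 17 partners, pumps and channels measured, 0 passed by limma in C3H at 24 h, where 3 had an unadjusted p under 0.05, 1 rose and 5 fell in AJ at 24 h, 1 rose and 4 fell in C3H at 6 h, and 3 rose and 4 fell in AJ at 6 h. Aqp5, the water channel of alveolar type 1 cells and glands, had log2 fold changes of -0.99 ± 0.16 (SE, adjusted p = 3.55e-05) in AJ at 24 h, -0.90 ± 0.16 (SE, adjusted p = 0.000187) in C3H at 6 h and -0.81 ± 0.16 (SE, adjusted p = 0.000232) in AJ at 6 h. Of 5 alveolar type 1 markers, Aqp5 among them, 1 fell in AJ at 24 h, 2 in C3H at 6 h and 4 in AJ at 6 h. Their summed intensity ran 7035 to 7928 with allergen in AJ at 24 h, against 8717 to 10224.1 with PBS. At 6 h it ran 7728 to 8449 with allergen in C3H, against 9481 to 11100.3 with PBS, and 6180.3 to 8142 in AJ, against 9197 to 11127 with PBS. These sums did not overlap. Of 7 endothelial markers, 3 fell in AJ at 6 h, with sums of 4654 to 6947.5 with allergen, against 7204 to 7823 with PBS. In C3H at 6 h 3 fell too, with overlapping sums of 5079 to 6765 with allergen, against 6553 to 8672 with PBS. At 24 h 1 of the 7 fell in each strain. Of 4 club cell markers, 3 fell in AJ at 24 h, with sums of 11563 to 15957 with allergen, against 16016 to 18157 with PBS. At 6 h 1 of the 4 fell in each strain. The part of these cells in the falls of carriers was not tested. Scnn1b, a subunit of the epithelial sodium channel, fell in the 3 comparisons given for Aqp5, at -0.44 ± 0.12, -0.61 ± 0.12 and -0.60 ± 0.12 in the same order. Emb, the partner that carries monocarboxylate carriers to the membrane, rose in AJ at 6 h by 0.81 ± 0.18 (SE, adjusted p = 0.00104). Of 12 organic anion and ABC carriers, 1 rose and 1 fell in AJ at 24 h, 1 rose and 2 fell in C3H at 6 h, and 1 fell in AJ at 6 h, where Abcg1, the cholesterol exporter, had -0.84 ± 0.10 (SE, adjusted p = 5.43e-08). The shares of all genes to set beside these counts are those given with the partners, pumps and channels.

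The allergen effect at 6 h differed between C3H and AJ for 6 of 161 members, all lower in C3H, against 2.69% of the genes above the floor in either direction. The effect was lower in C3H for 1.16% of those genes and higher for 1.54%. The difference of log2 fold changes, C3H minus AJ, was -1.01 ± 0.27 (SE, adjusted p = 0.0379) for Slc2a3, -0.92 ± 0.20 (SE, adjusted p = 0.00523) for Slc10a6 and -0.84 ± 0.19 (SE, adjusted p = 0.0126) for Slc15a3. For Slc39a1 it was -0.77 ± 0.20 (SE, adjusted p = 0.0302), for Slc9a3r1 -0.73 ± 0.18 (SE, adjusted p = 0.0237) and for Slc45a3 -0.66 ± 0.14 (SE, adjusted p = 0.00457). Slc39a14, with 1.54 in C3H and 2.37 in AJ, had a difference of -0.83 ± 0.29 (SE, adjusted p = 0.134), which did not pass, and Slc5a1 had 0.53 ± 0.24 (SE, adjusted p = 0.292). The call of Slc2a3 was lost with a pseudocount of 1 and in 12 of 20 fits without 1 array, that of Slc39a1 under quantile normalization and in 7 of 20 fits, and that of Slc9a3r1 without AJ allergen 6 h replicate 3 or C3H allergen 6 h replicate 4. The count was 3 without AJ allergen 6 h replicate 3, and 5 without C3H PBS 6 h replicate 2. At 24 h 1 of the 161 members differed, Slc25a4, by 0.97 ± 0.23 (SE, adjusted p = 0.0406), against 0.520% of those genes. That call was lost under quantile normalization, a pseudocount of 1, the mean of all probe sets and 16 of 20 fits without 1 array.

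**Figure D5:**
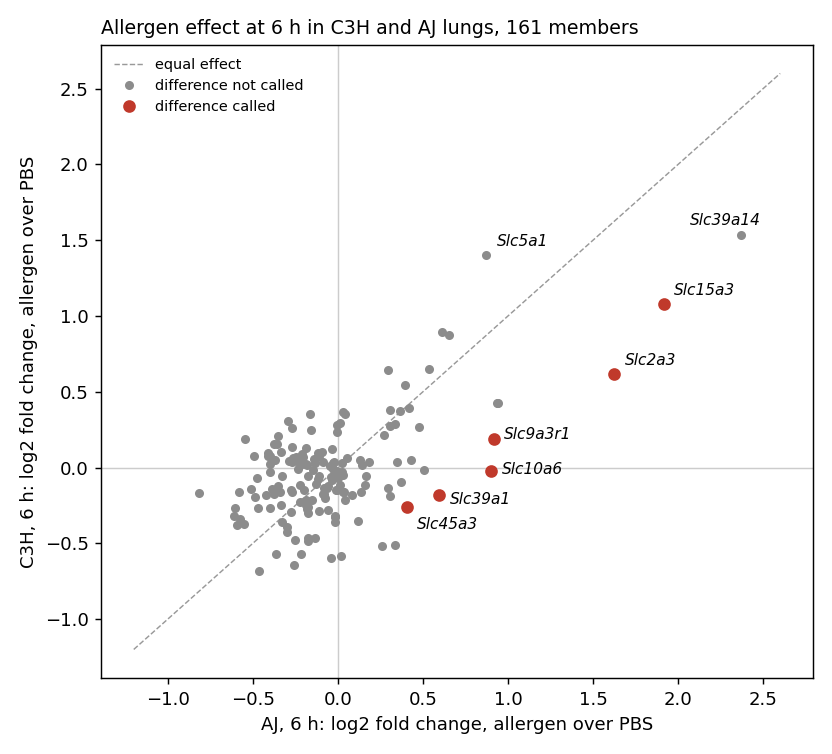
Each point is 1 of 161 members, placed by its log2 fold change, allergen over PBS, at 6 h in AJ lungs (horizontal axis) and in C3H lungs (vertical axis), with the 6 members whose difference between strains passed marked. All 6 lie below the diagonal, and the label of Slc39a14 marks the point at 2.37 in AJ and 1.54 in C3H.

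Without allergen, 8 of 161 members differed between C3H and AJ lungs at 6 h, 5 higher and 3 lower in C3H, against 5.65% of the genes above the floor. The split was 6 higher and 3 lower under quantile normalization, and 3 higher and 4 lower after median centring. The count was 3 without C3H PBS 6 h replicate 2 or AJ PBS 6 h replicate 3, 13 without C3H PBS 6 h replicate 4, 4 without AJ PBS 6 h replicate 2 and 5 without C3H PBS 6 h replicate 3. Slc39a1 had 562, 502, 524, 527 and 477 in C3H PBS lungs at 6 h, against 312, 280.1, 257, 363 and 386 in AJ PBS lungs, with no overlap and a log2 difference of 0.68 ± 0.14 (SE, adjusted p = 0.00269). Slc15a3 was higher in C3H too, by 0.61 ± 0.14 (SE, adjusted p = 0.00619), also without overlap, as its PBS arrays given above show. The PBS arrays of 6 h enter the allergen, strain and time comparisons alike. Slc12a7, a potassium-chloride cotransporter, had 0.46 ± 0.12 (SE, adjusted p = 0.0158), and Slc35b2, the Golgi carrier of the sulphate donor PAPS, had 0.43 ± 0.13 (SE, adjusted p = 0.0423). Slc25a37 was lower in C3H at -0.82 ± 0.21 (SE, adjusted p = 0.0183), and Slc26a2, a sulphate carrier, at -0.73 ± 0.22 (SE, adjusted p = 0.0416). The call of Slc12a7 was lost without AJ PBS 6 h replicate 3 or C3H PBS 6 h replicate 2, that of Slc25a37 in 5 of 10 fits without 1 array, and those of Slc35b2 and Slc26a2 in 6 of 10 each. Both were also lost with array quality weights, that of Slc35b2 after median centring or with a pseudocount of 1, and that of Slc26a2 on the mean of its probe sets, at -0.27 (adjusted p = 0.384). Slc1a5 (ASCT2), which imports glutamine and other neutral amino acids, was at 24 h the 1 of the 161 members that differed, against 2.33% of those genes. It had 175, 237, 173, 232 and 189 in C3H PBS lungs at 24 h, against 317, 314, 347, 369.6 and 335 in AJ PBS lungs. No C3H array reached an AJ array, and the log2 difference was -0.71 ± 0.15 (SE, adjusted p = 0.00333). At 6 h the groups overlapped and it was -0.53 ± 0.15 (SE, adjusted p = 0.0317), lost in 5 of 10 such fits.

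The allergen effect in AJ differed between 24 h and 6 h for 12 of 161 members, 5 higher and 7 lower at 24 h, against 7.29% of the genes above the floor. Quantile normalization gave 2 higher and 7 lower, and median centring 2 and 8. The effect, 24 h minus 6 h, was -1.43 ± 0.29 (SE, adjusted p = 0.00153) for Slc39a14, -1.10 ± 0.19 (SE, adjusted p = 0.000319) for Slc15a3 and -1.09 ± 0.20 (SE, adjusted p = 0.000386) for Slc10a6. For Slc39a14 the direction depended on the probe set: the dimmer one had an allergen effect of 0.65 at 24 h and 0.44 at 6 h. Slc38a2, Slc9a3r1, Slc7a6 and Slc45a3 had -0.73 ± 0.22, -0.69 ± 0.18, -0.55 ± 0.17 and -0.45 ± 0.14. Slc15a2 had 1.01 ± 0.25 (SE, adjusted p = 0.00944), higher at 24 h, as were Slc66a1 at 1.34 ± 0.39, Slc25a45 at 0.80 ± 0.19, Slc37a4 at 0.57 ± 0.16 and Slc7a7 at 0.53 ± 0.14. Calls were lost in 16 of 20 fits without 1 array for Slc7a6 and 10 of 20 for Slc38a2, in 5 of 20 each for Slc66a1 and Slc37a4, and without AJ PBS 6 h replicate 2 for Slc7a7. Those of Slc66a1, Slc37a4 and Slc7a7 were lost under quantile normalization and median centring, and that of Slc66a1 with a pseudocount of 1. Slc66a1 is also a member only through the group where it was highest. On the mean of all probe sets, Slc15a2 had 0.60 (adjusted p = 0.0915) and Slc7a6 -0.20 (adjusted p = 0.530), and neither passed; Slc7a6 was also lost with a pseudocount of 1. In C3H 2 of 161 members differed, Slc22a23 by 0.66 ± 0.17 (SE, adjusted p = 0.0441) and Slc25a11 by 0.66 ± 0.16 (SE, adjusted p = 0.04), against 1.07% of those genes. Neither passed without C3H PBS 6 h replicate 2, and the calls were lost in 14 of 20 and 10 of 20 fits without 1 array and with a pseudocount of 1; that of Slc22a23 was also lost after median centring and with the title number as a block.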

How the data were processed

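RNA of 40 mouse lung arrays was measured. The authors deposited linear intensity values, 1 for each probe set on each array; how these were computed is not given in the sources used here. After 2% of probe sets were trimmed at each end, the array mean was 150.036 to 150.046 on every array, and array medians ran from 63.7 to 81.3. 0 pairs of arrays held identical values.

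Of 22690 probe sets, 64 were controls, and 20380 had 1 gene symbol in the platform annotation, 691 several and 1555 none; only those with 1 symbol were used, by the brightest per gene, which left 12393 genes. For 75 members this chose among several probe sets. Values were taken as log2(intensity + 16), where 0.0776% of the members' values and 13.6% of all lay below the pseudocount of 16, which understates the changes of dim genes. A model of 8 group means was fitted with limma 3.58.1 in R 4.3.3 (32 residual and 4.62 prior degrees of freedom), and 12 two-sided contrasts were adjusted by Benjamini-Hochberg over all genes at 0.05. Errors are limma standard errors (SE). The test was checked on simulated data. Members, lists and tests were chosen with earlier results of these data known. Values were chosen for print by rule. These were the 10 largest rises and falls of each allergen contrast, the 6 of each other contrast and a fixed set of carriers. Not every value so chosen is printed. Slc11a2, Slc22a5 and Slc25a33 are printed though outside these largest changes. Slc25a15, Slc25a28, Slc25a44, Slc30a5, Slc35b4, Slc46a3 and Slc66a2 were named after their values were seen, to complete their roles. As alternatives, arrays were quantile normalized, median centred or weighted by quality, the pseudocount was 1 or 64, the dimmest 25% of genes were dropped, and probe sets of a gene were averaged; further fits had the title number as a block or left out 1 array. Promoters of 125 members were found in the RefSeq table.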

Additional observations from a re-analysis of the deposited data

Results flagged for a closer look

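Single arrays far from the other 4 of their group were looked for in 19 of the carriers named above, 152 groups in all, with Dixon's test, which flags about 1 in 20 groups by chance; 4 groups had one. Slc2a4 in AJ PBS lungs at 24 h had its highest value in replicate 3, at 317, with the others at 121 to 154. Slc7a5 in AJ allergen lungs at 24 h had its lowest in replicate 5, at 66.1, with the others at 109 to 120.2. Slc6a14 in C3H PBS lungs at 6 h had its lowest in replicate 2, at 73.6, with the others at 268 to 379, and this array also correlated least with its group. Slc22a23 in C3H allergen lungs at 24 h had its lowest in replicate 2, at 258, with the others at 344 to 384.

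The allergen effect, as a log2 fold change, differed between strains or times for the following carriers by limma's interaction terms, each with an adjusted p under 0.05. At 6 h the effect in C3H minus that in AJ was -1.01 for Slc2a3, -0.92 for Slc10a6, -0.84 for Slc15a3, -0.77 for Slc39a1, -0.73 for Slc9a3r1 and -0.66 for Slc45a3. At 24 h it was 0.97 for Slc25a4. In AJ, the effect at 24 h minus that at 6 h was -1.43 for Slc39a14, -1.10 for Slc15a3, -1.09 for Slc10a6, -0.73 for Slc38a2, -0.69 for Slc9a3r1, -0.55 for Slc7a6 and -0.45 for Slc45a3. A dimmer probe set of Slc39a14 had the opposite direction, at 0.65 at 24 h and 0.44 at 6 h. The effect in AJ at 24 h minus that at 6 h was 1.01 for Slc15a2, 0.80 for Slc25a45, 0.57 for Slc37a4 and 0.53 for Slc7a7. For Slc66a1, a member only through the group where it was highest, the effect was 1.34. In C3H the effect at 24 h minus that at 6 h was 0.66 for Slc22a23 and 0.66 for Slc25a11.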

How the results depend on the processing

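Counts of carriers that passed moved by over 1.5 times in these cases, and the cause was not tested. Array quality weights gave 12 for allergen in C3H at 24 h and 12 at 6 h, 4 for the effect at 24 h minus 6 h in C3H, 6 for C3H against AJ with PBS at 24 h and 17 for 24 h against 6 h with PBS in C3H. A pseudocount of 1 gave 0 for the effect in C3H minus AJ at 24 h, 0 for 24 h minus 6 h in C3H and 2 for C3H against AJ with PBS at 24 h. The mean of all probe sets gave 0 for the effect in C3H minus AJ at 24 h and 6 for 24 h minus 6 h in C3H; quantile normalization gave 0 for the first and median centring 1 for the second. Where limma gave 0 for C3H minus AJ at 24 h, 23 to 29 carriers had an unadjusted p under 0.05, and 32 did for 24 h minus 6 h in C3H. A pseudocount of 64 and leaving out the dimmest 25% of genes moved no count this far. No clear pairing by the numbers in the titles was seen: deviations of same-numbered arrays correlated at a median of 0.00. Of 20 pairs of allergen and PBS arrays, 3 were over 0.1, and the 20 ran from -0.23 to 0.26. Whether some arrays were paired cannot be told from these values. With the number as a replicate block, the count in C3H at 24 h was 6, and the other counts stayed within 1.5 times.

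Leaving out 1 array at a time gave 1 to 9 for allergen in C3H and 14 to 19 in AJ at 24 h, and 12 to 19 in C3H and 26 to 31 in AJ at 6 h. For the effect in C3H minus AJ it gave 0 to 2 at 24 h and 3 to 9 at 6 h, and for 24 h minus 6 h it gave 0 to 4 in C3H and 8 to 13 in AJ. With PBS, C3H against AJ ran 1 to 2 at 24 h and 3 to 13 at 6 h, and 24 h against 6 h ran 4 to 9 in C3H and 8 to 14 in AJ. Of 105 values named by rule, recomputed 2090 times, 1773 stayed past the threshold, 317 did not and 0 changed sign. The number of arrays limits every comparison, and the pseudocount shrinks the fold changes of dim carriers.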

Other observations

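Probe sets of a carrier did not always move by the same amount. Of the 35 members that passed in AJ at 6 h, 16 had further probe sets, and for 5 of these (Slc11a2, Slc25a44, Slc35e1, Slc66a2 and Slc7a6) at least 1 had the opposite sign. Of the members that passed in AJ at 24 h and in C3H at 6 h, 12 and 10 had further probe sets and 0 had the opposite sign. Of the 3 members that passed in C3H at 24 h, 2 had further probe sets, and for Slc6a9 at least 1 had the opposite sign. Slc2a1 went the other way in size: the brightest probe set had log2 fold changes of 0.65 in C3H and 0.53 in AJ at 6 h, against 1.0 to 1.10 in C3H and 0.81 to 1.05 in AJ for its other probe sets. The second probe set of Slc2a4, the glucose carrier of muscle and fat, was lower with allergen in AJ at 24 h by more than the first, at -1.44 beside -0.84. For Slc39a14 the difference in AJ was 0.65 at 24 h and 0.44 at 6 h on the dimmer probe set, beside 0.94 and 2.37 on the brighter one.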
